A study of Mus musculus with 18 samples.

Results

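Interferon gamma priming of mouse adipose-derived stromal cells (ASC), mesenchymal cells grown from fat tissue, was examined by comparing the miRNA counts of 4 primed and 4 naive ASC libraries. These 8 libraries were taken by their source names, primed ASC 2, 3, 4 and 5 and naive ASC 1, 3, 4 and 5, from a series of 18 small RNA libraries. The other 10 libraries, 5 naive and 5 primed, came from the extracellular vesicles (EVs) that ASC release. The labels give strain NGL, adipose tissue and adult animals for all samples. For priming, cells were pretreated with interferon gamma over 24 h. Primed and naive cells alike then spent 48 h in alpha MEM with 2% serum freed of EVs. The labels state no dose, passage or number of animals. One label field describes the RNA of every sample as vesicle RNA, which differs from the ASC source names used here. The titles of primed ASC 3, 4 and 5 end in IFG2 and that of primed ASC 2 in IFG1, and the labels do not explain these endings. The title of naive ASC 1 reads 1+2C, and whether that library holds 2 pooled samples is not stated. Whether replicates stand for separate animals or cultures is not stated, and p-values therefore reflect the spread between these samples alone, which may be technical.

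Interferon gamma is a cytokine of T cells and natural killer cells that acts through a cell surface receptor and turns on antigen presentation and immune regulatory genes. Stromal cells treated in this way are called primed or licensed, because they then restrain T cells more strongly. A miRNA is cut from a hairpin precursor and pairs with target mRNAs mainly through its seed, bases 2 to 8 counted from its 5′ end, and lowers their translation and stability. The counts used here are for whole hairpin loci and do not part the 5p arm from the 3p arm.

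Sequences of mature miRNAs from loci named below are given first, from RefSeq on GRCm38.p6, 5′ to 3′, with the seed in capitals. The counts do not tell which arm a change came from. The reference used held no miR-140-5p or miR-147-3p, so only the other arm of these is shown. The first set is shown because its members share 1 seed while their loci moved in opposite directions. miR-125b-5p is made from 2 loci with the same mature sequence.
miR-125a-5p: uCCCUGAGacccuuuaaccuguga
miR-125b-5p: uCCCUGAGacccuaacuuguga
miR-351-5p: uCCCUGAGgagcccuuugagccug
The second set holds other miRNAs whose loci were higher after priming.
miR-140-3p: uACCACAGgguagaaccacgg
miR-218-5p: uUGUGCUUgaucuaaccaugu
miR-7224-5p: gGGUAGGCcccucagugaaga
miR-1247-5p: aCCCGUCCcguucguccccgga
miR-147-5p: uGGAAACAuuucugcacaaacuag
miR-34b-5p: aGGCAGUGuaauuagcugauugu
The third set comes from loci that were lower, the first 4 of them from the imprinted Dlk1-Dio3 region of chromosome 12. let-7a-5p is added because miR-98-5p carries its seed.
miR-758-3p: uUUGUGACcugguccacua
miR-495-3p: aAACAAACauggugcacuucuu
miR-382-5p: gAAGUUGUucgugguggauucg
miR-541-5p: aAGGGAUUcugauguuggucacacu
miR-28a-5p: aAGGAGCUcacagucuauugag
miR-98-5p: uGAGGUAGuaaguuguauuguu
let-7a-5p: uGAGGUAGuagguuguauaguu

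The 8 libraries held 180812 to 926183 counts, and primed ASC 4 and primed ASC 3 were the shallowest with 180812 and 303069. Totals of the groups did not part (exact two-sided permutation p = 0.343). miRNAs typical of mesenchymal stromal cells took 50.2% ± 9.92 of naive and 45.9% ± 4.07 of primed counts (SD, n = 4 each). Libraries 3 and 4 stood apart from the others within both groups along the second principal component of log2 CPM, which held 27.4% of the variance. CPM here are counts divided by the TMM-scaled library total in units of 1e6 counts. The epithelial miRNA Mir205 also split this way, at 772 to 1935 CPM in the libraries numbered 3 and 4 of both groups and at 18.9 to 237 CPM in the other 4. Naive ASC 5 had the lowest share of counts on its 5 most abundant loci, 38.6% against 46.4% to 53.3% in the other libraries. Its TMM factor, 1.557, was the highest.

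Priming changed 25 of 245 tested loci, which is 10.2%, with 13 higher (5.31%) and 12 lower (4.9%). The test was edgeR's quasi-likelihood test, with p-values adjusted by Benjamini-Hochberg and a threshold of 0.05. At an unadjusted p under 0.05 there were 57 loci (23.3%). The loci that rose took 12.7% of the naive and 21.5% of the primed counts, and those that fell took 17.1% and 9.14%. The plot of fold change against level names them. Over all 245 loci, 101 fold changes were positive and 144 negative. The median log2 fold change of all tested loci was −0.12, and scaling by RLE or TMMwsp in place of TMM moved it to 0.00. The split of the calls moved with it, to 18 higher and 5 lower under RLE, 17 and 2 under TMMwsp, 14 and 5 under upper quartile scaling and 11 and 14 with library totals alone. All 25 loci kept their sign under each of these 4 scalings.

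**Figure D1:**
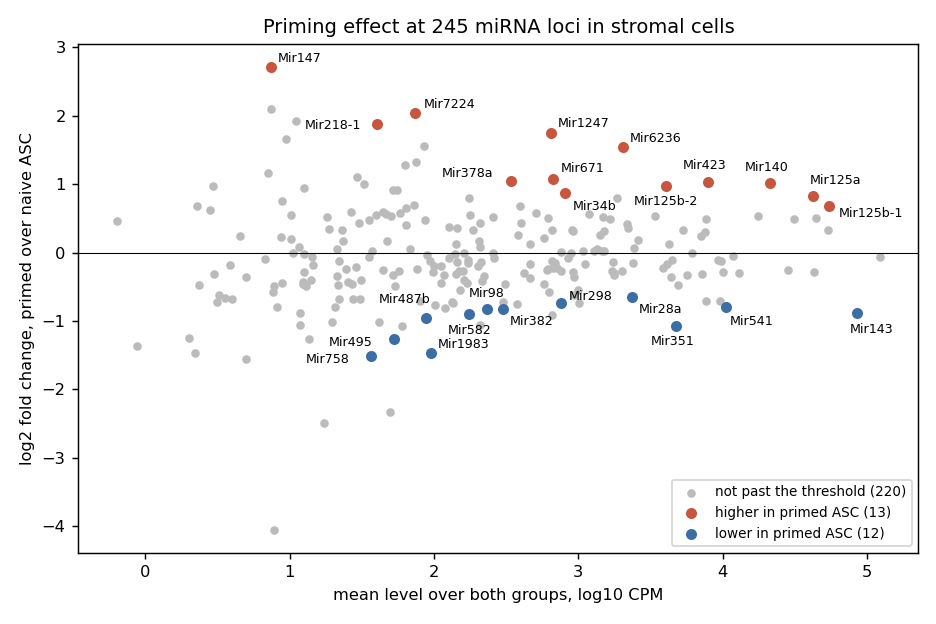
Log2 fold change of primed over naive ASC (vertical axis) against the mean level over both groups in log10 CPM (horizontal axis) for the 245 tested loci, 1 point per locus. The 13 loci that rose (red) reach 2.71 and the 12 that fell (blue) reach −1.51, and the other 220 are grey.

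The counts of calls depended on single libraries. Without naive ASC 3 or without naive ASC 4, 5 loci were higher and 1 lower. Without primed ASC 3 there were 9 and 2, without primed ASC 4 11 and 1, without primed ASC 5 17 and 16, without naive ASC 1 13 and 4, without naive ASC 5 13 and 8, and without primed ASC 2 15 and 10. Vesicle libraries, fitted jointly with the ASC ones, mattered as well. Without naive EV 1, 2 or 3, or any 1 primed EV library, 6 or 7 loci were lower. Without naive EV 5 there were 10 lower, and without naive EV 4 there were 14. Without both shallow primed libraries 2 loci were higher and 1 lower. The 8 ASC libraries fitted alone gave 14 higher and 1 lower. Each of the 25 loci kept its sign in every one of these fits in which it was tested, but these fits share libraries with the one that picked them. Mir125b-2, Mir140, Mir218-1, Mir7224, Mir125a and Mir351 passed without any 1 of the 18 libraries, with a largest adjusted p of 0.0473 (edgeR, Mir351 without naive ASC 5). The other 19 lost the call without at least 1 library. After every library was thinned to the total of the shallowest ASC library, Mir7224 (edgeR adjusted p = 0.473), Mir218-1 (0.222) and Mir351 did not pass. Mir125b-2 passed in all 16 of the other scalings, filters, models and corrections tried, while the fit of title numbers 2 and 5 alone called no locus.

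The groups did not overlap at 28 loci, 11.4% of those tested, 16 of them higher (6.53%) and 12 lower (4.9%). Of the 25 loci that passed, 17 had groups without overlap, 10 higher and 7 lower. At 13 of the 25, which is 5.31% of the tested loci, the change was at least 2-fold, and 9 of these were higher.

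**Figure D2:**
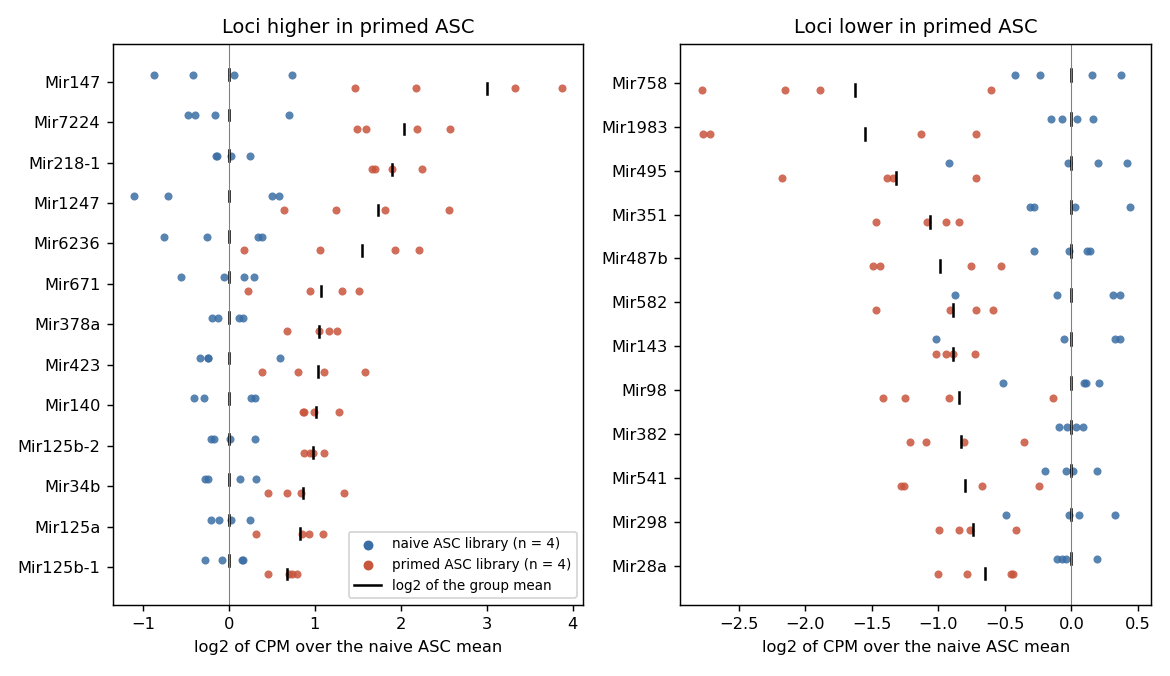
Levels of the 25 loci that passed, as log2 of CPM over the mean of the naive ASC libraries (horizontal axis), with naive (blue) and primed (red) libraries as points and the log2 of each group mean as a black bar. Points of the groups do not mix at 17 of the 25 loci, while naive ASC 5 lies among or beyond the primed libraries at Mir143.

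The miR-125 family, related to the lin-4 miRNA that times larval stages in worms, rose as a group of 3 loci. Mir125b-2 lies in an intron of Mir99ahg (chr16:77646273-77646343, plus strand). It was at 3374, 2419, 2359 and 2762 CPM in naive ASC 1, 3, 4 and 5 and at 5395, 5891, 5002 and 5231 CPM in primed ASC 2, 3, 4 and 5. Every primed library was above every naive library, and the spread within each group was small beside the gap. Its log2 fold change was 0.98 (SE 0.18, edgeR adjusted p = 0.00469).

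Mir125b-1, with far more counts than Mir125b-2, lies in an exon of Gm28119 (chr9:41581926-41582002, plus strand). It had 47259, 34693, 39866 and 46992 CPM in the naive and 72931, 70408, 68515 and 57931 CPM in the primed libraries, in the same library order. No library of one group reached the other, and primed ASC 5 was the lowest of the primed libraries. Priming gave a log2 fold change of 0.68 (SE 0.16, edgeR adjusted p = 0.0115), and the call was lost without naive ASC 3 (adjusted p = 0.0661) and without naive ASC 4 (adjusted p = 0.0618). Reads of miR-125b-5p fit both loci equally. Counting used no option for multiple mapping, so such reads may be left out, and the levels of Mir125b-1 and Mir125b-2 are uncertain.

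Mir125a, in an exon of Spaca6 (chr17:17830803-17830887, plus strand), stood at 31402, 26639, 28497 and 36527 CPM in the naive libraries. The primed libraries had 55297, 58495, 65912 and 38223 CPM. Primed ASC 5, the lowest of them, was just above the highest naive library. The log2 fold change was 0.82 (SE 0.18, edgeR adjusted p = 0.00883).

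Mir351 carries the same seed and fell. It lies between genes on the X chromosome (chrX:53053255-53053353, minus strand) in a cluster with Mir322 and Mir503, which restrain the cell cycle. Its level was 5152, 6503, 5267 and 8662 CPM in the naive and 3018, 3326, 3566 and 2304 CPM in the primed libraries. No primed library reached the lowest naive one. Its log2 fold change was −1.07 (SE 0.23, edgeR adjusted p = 0.00762), the lowest p among the loci that fell. Of the 4 tested loci with this seed, 3 rose and 1 fell. Together the 3 that rose far outnumbered Mir351 in CPM in every library.

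**Figure D3:**
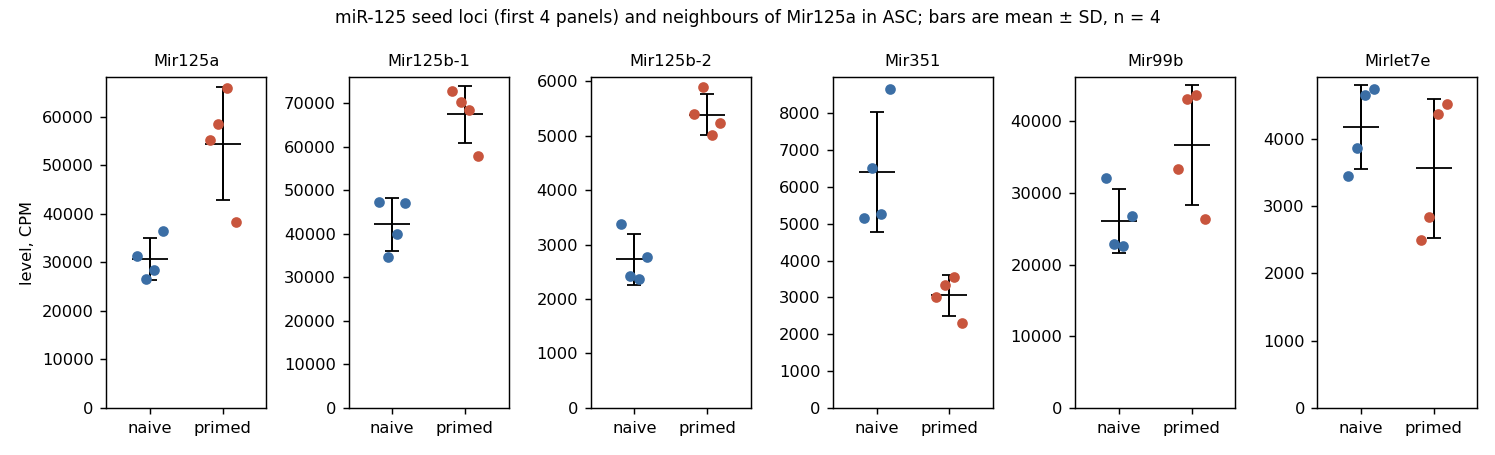
Levels in CPM (vertical axes, each from 0) of the 4 loci with the miR-125 seed and of Mir99b and Mirlet7e, which lie beside Mir125a, in naive and primed ASC, 1 point per library with the mean ± SD (n = 4). Primed libraries are all higher for Mir125a, Mir125b-1 and Mir125b-2 and all lower for Mir351, while the groups overlap for Mir99b and Mirlet7e.

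The 2 other miRNAs made beside Mir125a did not pass. Mir99b, 546 bases away, had a log2 fold change of 0.49 (SE 0.20, edgeR adjusted p = 0.126), with groups that overlapped. Mirlet7e, 344 bases away, had −0.23 (SE 0.19, edgeR adjusted p = 0.474). The list of miR-99/100 and miR-125 families did not hold Mir351, which has the miR-125 seed and fell. Over this list, 3 of 6 tested loci rose and none fell, where 13 of all 245 (5.31%) rose. All 6 fold changes were positive, as were 101 of all 245. Their median was 0.58, against −0.12 for all tested loci, and it lay between 0.47 and 0.73 under the other scalings and corrections tried. The list took 13.8% ± 3.31 of naive and 21.01% ± 3.98 of primed counts (SD, n = 4 each). The groups overlapped, as naive ASC 5 had 18.3% and primed ASC 5 15.5% (exact two-sided permutation p = 0.0571, 0.212 adjusted over 26 shares).

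Mir140, a miRNA known for its high level in cartilage, sits within Wwp2 (chr8:107551244-107551313, plus strand). It rose from 17038, 11617, 10696 and 17570 CPM in the naive libraries to 26091, 34491, 25885 and 28229 CPM in the primed ones. The lowest primed library was well above the highest naive library. Priming gave a log2 fold change of 1.01 (SE 0.19, edgeR adjusted p = 0.00469). In the vesicles Mir140 rose as well, by 0.84 (SE 0.17, edgeR adjusted p = 0.0110).

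Mir218-1 lies in an intron of Slit2, whose product guides axons and migrating cells through Robo receptors (chr5:48223942-48224051, plus strand). Naive libraries had 15.4, 20.1, 15.4 and 17.3 CPM and primed libraries 55.4, 80.7, 54.0 and 63.4 CPM. The groups were far apart, and the naive libraries lay within a few CPM of each other. The log2 fold change was 1.88 (SE 0.39, edgeR adjusted p = 0.00745). Its mature miR-218-5p is also made from Mir218-2, so reads of that arm may be left out or split between the loci.

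Mir7224, in an intron of B3galt1 (chr2:67675457-67675516, plus strand), had 25.7, 21.96, 20.8 and 46.9 CPM in the naive libraries. In the primed libraries it had 172, 132, 87.2 and 80.8 CPM. The highest naive library, naive ASC 5, was still below the lowest primed one. Its log2 fold change was 2.04 (SE 0.43, edgeR adjusted p = 0.00745).

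Mir147 lies in the untranslated region of AA467197 (chr2:122640803-122640881, plus strand) and is known as a miRNA that Toll-like receptors and interferons induce in macrophages. It rested on few counts, 1, 3, 1 and 1 in the naive and 5, 9, 4 and 6 in the primed libraries. The ratio of primed to naive counts, relative to summed totals, was 5.71, with a 95% interval of 2.27 to 17.1 that covers counting error only. The fitted log2 fold change was 2.71 (SE 0.76, edgeR adjusted p = 0.0297), and the call was lost without naive ASC 4 (adjusted p = 0.100) and without 4 other libraries. With the ASC libraries alone, a stricter filter or thinning, Mir147 had too few counts to be tested. It did not pass under limma-voom (adjusted p = 0.236). In vesicles the same locus had the lowest adjusted p of the priming comparison, with a log2 fold change of 3.15 (SE 0.49, edgeR adjusted p = 0.000827).

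Of 9 tested miRNAs linked to NF-kB and Toll-like receptor signalling, Mir147 was the 1 that passed, and none fell, a share near the 10.2% of all tested loci that passed. The median was 0.05, and it turned to −0.03 with library totals alone. Mir155, the miRNA most closely tied to activated immune cells, was at 822 to 1880 CPM in naive and 967 to 2172 CPM in primed libraries, with a log2 fold change of 0.25 (edgeR adjusted p = 0.642). Mir146, which damps NF-kB signalling, had 0.53, Mir21a −0.30, Mir132 −0.33 and Mir212 −0.46. Mir222 had 0.54 (edgeR adjusted p = 0.126) and Mir221, its neighbour on the X chromosome, 0.05. None of these 7 passed, and their groups overlapped. The same held for Mir31, the remaining member, with −0.73 (edgeR adjusted p = 0.181).

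Mir29a and Mir29b-1, which repress collagen genes, had log2 fold changes of 0.33 and −0.68 without passing (edgeR), and their groups overlapped.

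Mir378a, a regulator of lipid and energy metabolism within an intron of Ppargc1b, was counted at a locus that the annotation places on the strand opposite to that gene. Counting did not use strand. It had 194, 202, 248 and 241 CPM in the naive and 354, 530, 494 and 458 CPM in the primed libraries. The groups did not overlap. Priming gave a log2 fold change of 1.05 (SE 0.32, edgeR adjusted p = 0.0379), and the call was lost without naive ASC 1 (adjusted p = 0.0543), naive ASC 3 (0.073), naive ASC 4 (0.0889) or primed ASC 3 (0.0654).

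Mir34b, a direct target of p53, was at 717, 475, 487 and 633 CPM in the naive and 923, 1457, 1034 and 795 CPM in the primed libraries. Its groups did not overlap (log2 fold change 0.86, SE 0.25, edgeR adjusted p = 0.0301). The call was lost without primed ASC 3 (adjusted p = 0.161), naive ASC 3 (0.121), naive ASC 4 (0.108) or primed ASC 4 (0.0505). Mir34c, 452 bases away, had 0.36 and did not pass (edgeR adjusted p = 0.342). Mir34a, the third member, had −0.31 (edgeR adjusted p = 0.481). The 3 loci of the miR-34 family took 0.339% ± 0.023 of naive and 0.450% ± 0.044 of primed counts, without overlap (SD, n = 4 each). The exact two-sided permutation p was 0.0286, the smallest that 4 against 4 can give, and 0.186 adjusted over 26 shares.

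Mir671, within the coding sequence of Chpf2, was at 489, 295, 416 and 531 CPM in the naive libraries. The primed libraries had 1238, 828, 1075 and 503.1 CPM, and primed ASC 5 lay among the naive ones. The log2 fold change was 1.07 (SE 0.27, edgeR adjusted p = 0.0215), and the call was lost without naive ASC 3 (adjusted p = 0.0684) or naive ASC 4 (0.0742).

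Mir423, in an intron of Nsrp1, went from 4416, 4135, 4410 and 7889 CPM to 11253, 9099, 15616 and 6800 CPM. Naive ASC 5 was above primed ASC 5. Its log2 fold change was 1.04 (edgeR adjusted p = 0.0301), lost without naive ASC 3 (adjusted p = 0.105), naive ASC 4 (0.104), primed ASC 4 (0.0785) or naive ASC 1 (0.0655).

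Mir6236 belongs to the annotated loci whose sequence resembles ribosomal or other abundant RNA. It had 1314, 1352, 614 and 871 CPM in the naive and 1175, 4802, 3964 and 2163 CPM in the primed libraries. Primed ASC 2 lay among the naive libraries, and the shallow primed ASC 3 and 4 were the highest. Its log2 fold change was 1.54 (SE 0.43, edgeR adjusted p = 0.0297), and 0.65 without primed ASC 3 and 4 (edgeR adjusted p = 0.503). The call was also lost without naive ASC 4 (adjusted p = 0.104) and without 4 other single libraries. Of all 245 tested loci 10.2% passed and 101 were positive. Of the 8 tested loci that resemble ribosomal or other abundant RNA 1 passed, and 7 were positive with a median of 1.00. They took 0.276%, 0.335%, 0.209% and 0.342% of the naive and 0.244%, 0.708%, 0.684% and 0.370% of the primed counts. The part of RNA breakdown or depth in this was not tested.

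The largest group of loci that fell came from the Dlk1-Dio3 region, an imprinted domain on chromosome 12 whose miRNAs are made from the maternal chromosome. Of 34 tested loci 5 fell and none rose, where 12 of all 245 (4.9%) fell. Fold changes were negative at 30 of the 34 and at 144 of all 245. The median was −0.46, against −0.12 for all tested loci, and between −0.29 and −0.52 under the other scalings and corrections tried. At 6 of the 34 the groups did not overlap, all lower, as at 12 of all 245 (4.9%). The 5 calls rested on scaling, on single libraries and, at 4 of them, on the GC trend. Mir758 passed in 11 of 18 fits without 1 library, Mir487b in 13, Mir382 in 4, and Mir541 and Mir495 in 3 each, with largest adjusted p of 0.115, 0.147, 0.207, 0.27 and 0.199 (edgeR).

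Mir541, the most abundant of the 5 (chr12:109742409-109742498, plus strand), was at 13134, 11779, 13612 and 15420 CPM in the naive libraries. It was at 11391, 5555, 5633 and 8465 CPM in the primed ones. Every primed library was lower, but primed ASC 2 was close to the lowest naive library. Priming gave a log2 fold change of −0.80 (SE 0.22, edgeR adjusted p = 0.0297).

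Mir382 (chr12:109733772-109733851, plus strand) had 376, 361, 409 and 394 CPM in the naive and 220, 180, 166 and 301 CPM in the primed libraries. The groups did not overlap, with a log2 fold change of −0.82 (SE 0.24, edgeR adjusted p = 0.0331). Mir487b (chr12:109727333-109727414, plus strand) had 115, 96.1, 126 and 128 CPM against 69.1, 43.0, 41.5 and 80.8 CPM, again without overlap (log2 fold change −0.95, SE 0.26, edgeR adjusted p = 0.0238).

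Mir758 (chr12:109712810-109712890, plus strand) fell most, by 1.51 on the log2 scale (SE 0.40, edgeR adjusted p = 0.0238). Its levels were 61.8, 41.2, 47.0 and 71.6 CPM in the naive and 36.4, 8.07, 12.5 and 14.9 CPM in the primed libraries. Mir495 (chr12:109718747-109718826, plus strand) had 73.8, 86.0, 100.3 and 39.5 CPM against 45.4, 29.6, 16.6 and 28.6 CPM. Naive ASC 5 lay below primed ASC 2 at this locus (log2 fold change −1.26, edgeR adjusted p = 0.0463).

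At the Dio3 end of the region Mir1247 moved the other way. It lies in an exon of the antisense transcript Dio3os (chr12:110278048-110278129, minus strand), away from the cluster, and was not on the list. It had 420, 181, 138 and 445 CPM in the naive and 1748, 699, 461 and 1045 CPM in the primed libraries. Every primed library was higher, although primed ASC 4 was just above naive ASC 5. The log2 fold change was 1.75 (SE 0.47, edgeR adjusted p = 0.0238), lost without naive ASC 4 (adjusted p = 0.0998), naive ASC 3 (0.0958) or primed ASC 2 (0.0732), and after thinning to the shallowest library (0.178).

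**Figure D4:**
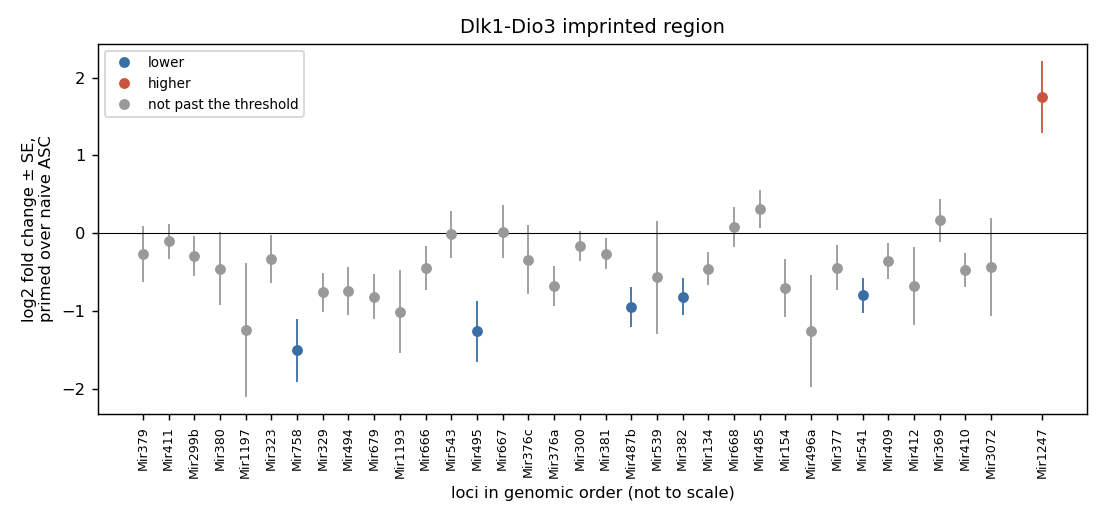
Log2 fold change of primed over naive ASC ± SE (vertical axis) at the 34 tested loci of the Dlk1-Dio3 cluster in genomic order and at Mir1247, set apart at the right. The 5 loci that fell are blue and Mir1247, which rose, is red, while 30 of the 34 cluster loci lie below 0.

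The share of counts on the cluster was 5.36%, 4.53%, 5.18% and 6.32% in the naive and 5.83%, 3.03%, 3.05% and 3.47% in the primed libraries. Primed ASC 2 lay among the naive libraries, and the other 3 primed libraries were lower (exact two-sided permutation p = 0.114). The hairpins of the cluster with Mir1247 had a median GC content of 45.1%, against 51.1% over all tested loci. Over the 245 loci the fold change went with hairpin GC content (Pearson r = 0.274, Spearman rho = 0.285), a description across loci of the same 8 libraries. The median GC content was 53.3% at the loci that rose and 49.0% at those that fell. With the GC trend of each library removed, 14 loci were higher and 5 lower. Of the 5 loci of the cluster Mir758 then still passed, while Mir495 had −0.84 (edgeR adjusted p = 0.225), Mir382 −0.54 (0.203), Mir541 −0.59 (0.225) and Mir487b −0.81 (0.0584). Mir1247, whose hairpin has 74.4% GC, had 1.52 and also lost its call (edgeR adjusted p = 0.0584).

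Mir143 and Mir145a, made from 1 transcript and known for the contractile state of smooth muscle and stromal cells, make up the contractile list tested here. Mir143 was among the most abundant loci and fell, with 107457, 143591, 140142 and 55088 CPM in the naive and 67460, 60195, 55166 and 58108 CPM in the primed libraries. Naive ASC 5 was below every primed library, and the other 3 naive libraries were far above them. Its log2 fold change was −0.89 (SE 0.23, edgeR adjusted p = 0.0233), and the call was lost without primed ASC 4 (adjusted p = 0.106), naive ASC 3 (0.0958), naive ASC 4 (0.0889) or primed ASC 3 (0.0654). Mir145a had 13836, 11481, 12842 and 9560 CPM against 7086, 9710, 7459 and 4843 CPM (log2 fold change −0.71, edgeR adjusted p = 0.0608). The pair took 15.4% ± 3.99 of naive and 8.33% ± 0.80 of primed counts without overlap (SD, n = 4 each; exact two-sided permutation p = 0.0286, 0.186 adjusted over 26 shares).

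Mir28a, in an intron of Lpp, was at 2791, 2732, 3288 and 2670 CPM in the naive and 1432, 1667, 2121 and 2091 CPM in the primed libraries. The groups did not overlap (log2 fold change −0.65, SE 0.17, edgeR adjusted p = 0.0231). The call was lost without naive ASC 4 (adjusted p = 0.0889) and without 4 other libraries. It held in 7 of 16 other scalings, filters, models and corrections. RLE, TMMwsp and upper quartile scaling lost it, as did the ASC libraries alone (adjusted p = 0.123). Mir1983 had 127, 145, 158 and 135 CPM against 64.5, 21.5, 20.8 and 85.7 CPM, a log2 fold change of −1.47 (SE 0.38, edgeR adjusted p = 0.0233). Its groups did not overlap, and the shallow primed ASC 3 and 4 were the lowest. That call was lost without primed ASC 4 (adjusted p = 0.109) and without 4 other libraries.

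The remaining 3 loci that fell had groups that overlapped. Mir298 had a log2 fold change of −0.74 (edgeR adjusted p = 0.0331), Mir582 in an intron of Pde4d −0.89 (0.0463) and Mir98 in an intron of Huwe1 −0.83 (0.0480). Each kept its call in 3 of 18 fits without 1 library, with largest adjusted p of 0.196, 0.157 and 0.207 (edgeR).

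Mir98 was the 1 of 12 tested let-7 family loci that fell, and none rose, where 4.9% of all tested loci fell. The family's median was −0.24, against −0.12 for all tested loci. Of its 12 tested loci, 3 were positive and 9 negative, against 101 and 144 of all 245. Let-7 members have identical or near-identical mature sequences, so reads may be left out or misplaced, and their counts are uncertain between loci.

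Other lists held few or no calls, where 5.31% of all tested loci rose and 4.9% fell. Fibrosis and matrix linked miRNAs had 0 of 16 past the threshold (edgeR), with Mir30d nearest at 0.53 (adjusted p = 0.0584) and a median of −0.10 that turned to 0.02 under RLE and 0.04 under TMMwsp. The list took 6.13% ± 0.12 of naive and 6.51% ± 0.06 of primed counts without overlap (exact two-sided permutation p = 0.0286, 0.186 adjusted over 26 shares). Of 9 tested loci of the 17-92 clusters and their paralogs, which drive proliferation, none passed and 8 were negative. Of all 245 tested loci 144 were negative. Mir17 was lower in every primed library, at 72.1, 98.8, 75.9 and 82.7 against 32.7, 43.0, 29.1 and 49.7 CPM, but missed the threshold (log2 fold change −1.07, edgeR adjusted p = 0.0573). Mir322 had −0.73 (edgeR adjusted p = 0.0751). Of 14 fat cell and lipid metabolism loci 1 rose, Mir378a, and none fell. Of 16 cartilage, bone and mesenchymal loci 2 rose, Mir140 and Mir218-1, and 2 fell, Mir351 and Mir143. Of 6 Hox cluster loci none passed, and Mir10b ranged from 16807 to 71476 CPM in naive and from 19883 to 98964 CPM in primed libraries.

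Markers of other cell types were measured in the same way, where 101 of all 245 tested loci were positive and 144 negative. Of 6 haematopoietic loci none passed and all 6 were positive, with a median of 0.70. They took 0.0128% to 0.0214% of naive and 0.00916% to 0.0559% of primed counts, highest in primed ASC 4. The endothelial Mir126a had 0.79 overall but −0.34 without primed ASC 3 and 4, and took 0.0105% to 0.0288% of naive and 0.00601% to 0.0592% of primed counts. Of 9 epithelial loci none passed and all 9 were negative, with a median of −0.73. Without the filter on low counts 4 of them, Mir205, Mir429, Mir200b and Mir200c, passed as lower, and the red cell miRNA Mir451a passed as higher. The share of the epithelial loci was 1.11% to 1.95% of naive and 0.439% to 1.34% of primed counts (exact two-sided permutation p = 0.0857). Their part in the priming calls was not tested.

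The libraries were also fitted by title number, a split chosen after the second principal component was seen. The libraries numbered 3 and 4 in both groups gave 29 loci higher and 15 lower (edgeR). Naive ASC 1 with primed ASC 2, whose titles share a 2, and both libraries numbered 5 gave none, and 20 loci at an unadjusted p under 0.05. All 25 loci had the same sign in both fits. They were picked in these same libraries, so this agreement is no independent support. Mir218-1 had 1.96 in numbers 2 and 5 and 2.03 in numbers 3 and 4, Mir1247 1.78 and 1.97, and Mir125b-2 0.89 and 1.29. Mir143 had −0.30 and −1.20, Mir1983 −0.69 and −2.73, and Mir6236 0.72 and 2.26. The differences between these fits were not tested.

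In vesicles priming changed 2 of 245 loci, 0.816% (edgeR), which were Mir140 and Mir147, both higher. Of the 13 loci that rose in cells, 12 had a positive value in vesicles, and of the 12 that fell, 7 had a negative one. At 24 of the 25 the value in vesicles was smaller in size, and these loci were picked for their size in cells. Mir143, −0.89 in cells, had 0.28 in vesicles, and Mir351 had −0.58. The interaction, the priming effect in vesicles minus that in cells, passed at 0 of 245 loci (0%, edgeR), with a smallest adjusted p of 0.232, and 26 loci (10.6%) at an unadjusted p under 0.05. DESeq2 called 3 loci and limma-voom 0. A difference between cells and vesicles was therefore not shown at any single locus by the edgeR test.

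**Figure D5:**
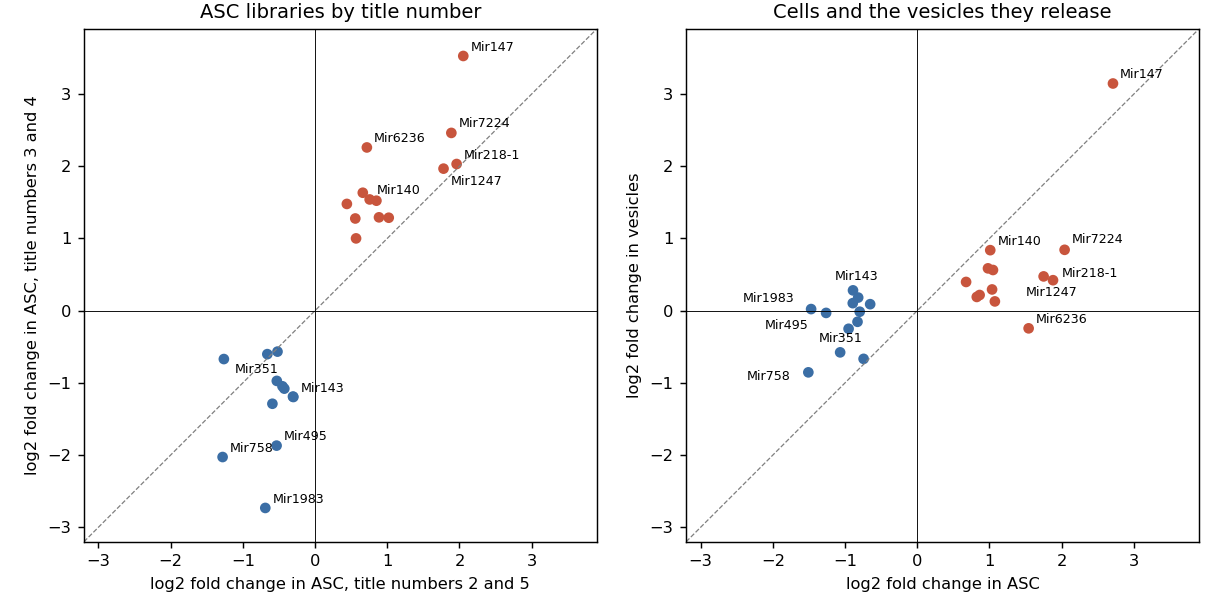
Log2 fold changes of priming at the 25 loci that passed in ASC, with loci that rose in red and those that fell in blue. Left, libraries of numbers 3 and 4 (vertical) against numbers 2 and 5 (horizontal), where all 25 points share a sign. The 25 loci were picked in these same ASC libraries. Right, vesicles (vertical) against ASC (horizontal), where 12 of 13 red and 7 of 12 blue points share a sign. The dashed line marks equal values.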

How the data were processed

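Small RNA libraries were made from ASC RNA (TRIzol and RNeasy) with a TruSeq Small RNA kit, per the labels' protocols. The authors deposited raw counts per annotated miRNA hairpin locus. Per the file headers, featureCounts 1.5.3 produced them from Ensembl release 76 miRNA annotation, unstranded and with no option for multiple mapping or overlap. The submitters' processing notes name featureCounts 1.45, STAR 2.0.4, bcl2fastq, Subread and GRCm38. Settings for trimming and alignment are not given.

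All 18 libraries were fitted with 1 mean per group in edgeR 4.0.16 (R 4.3.3, TMM, filterByExpr, quasi-likelihood test), with Benjamini-Hochberg adjustment over 245 of 2009 loci, which hold 99.9% of ASC counts. SE was taken as the size of the log2 fold change divided by the root of F. The fit was tested on simulated data. It recovered 7 of 20 loci with a true log2 change of 1 and 16 of 20 with one of 2. A locus that did not pass may therefore still have changed. There were 0 false calls among 205 unchanged loci. The simulated counts followed the means and spread of the fit, without a split by title number or a GC trend. False calls from these could not show there. Lists are described by counts and medians. Shares of counts were compared by exact two-sided permutation in scipy 1.17.1, adjusted over 26 tests. Reads carry no molecular identifiers. Alternatives were other scalings, filters, models (DESeq2 1.42.0, limma 3.58.1), thinning, replicate blocks and left-out libraries. Named loci are the 15 largest increases and the 15 largest decreases past the threshold with at least 10 CPM in the higher group, the most abundant loci, the 2 tested loci of each list with the lowest p, loci within 10 kb of a passing locus and 12 chosen inflammatory, matrix and contractile loci; Mir205 and the remaining loci were chosen after their values were seen. Members and lists were chosen with earlier results of these data known. Of the loci, 1899 matched GENCODE M21 by identifier and 29 took RefSeq names. RefSeq held mature sequences, outside chromosome 18, for 23 of the 25 passing loci. One list and its share of counts are not reported here.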

Additional observations from a re-analysis of the deposited data

Results flagged for a closer look

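In naive ASC 5 Mir423 stood at 7889 CPM, far from the 4135 to 4416 CPM of the other 3 naive libraries. The share of counts on fibrosis and matrix linked miRNAs was 6.30% in the same library, against 6.06% to 6.10% in the other 3. In 60 groups of 4 libraries checked in this way 2 libraries stood apart, and chance gives about 1 in 20.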

How the results depend on the processing

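Against 13 loci higher and 12 lower in primed ASC, DESeq2 gave 23 higher, among them all 13. The count of lower loci was 5 under RLE, 2 under TMMwsp and 5 under upper quartile scaling, 1 with the ASC libraries alone, 0 after thinning to the shallowest library and 5 with the GC trend removed. A replicate block by title number gave 20 lower, and the same block on the ASC libraries alone 5 higher and 0 lower, where Mir140 (adjusted p = 0.0574), Mir125a (0.130) and Mir351 (0.109) were among the losses. Deviations from the group means correlated at 0.346, 0.317, 0.277 and 0.046 between same-numbered libraries. For naive ASC 1, 3 and 4 this was the highest value with any primed library. Naive ASC 5 was highest with primed ASC 2 (0.193). Whether the numbers pair samples is not stated, and the main fit used no block. A 2-level replicate block chosen after seeing the data gave 4 lower. Other settings chosen after seeing the data gave 2 higher and 1 lower without primed ASC 3 and 4, 0 and 0 in numbers 2 and 5, and 29 higher in numbers 3 and 4. Leaving out 1 library gave 5 to 17 higher and 1 to 16 lower. The interaction had 3 loci with DESeq2, 3 with no filter and 0 to 1 without 1 library. Signs turned at loci that had not passed. Mir221 had −0.030 with library totals, −0.017 in numbers 3 and 4, and −0.15 to 0.27 without 1 library, below 0 without primed ASC 5 or naive ASC 4. Mir126a had −0.34 and Mir128-1 −0.58 without primed ASC 3 and 4. In numbers 2 and 5, Mir196b had 0.19, Mir126a −0.66, Mir21a 0.024, Mir27b 0.10, Mir192 0.57 and Mir128-1 −0.085. In numbers 3 and 4, Mir195a had −0.041 and Mir155 −0.037. The causes were not tested.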
